A study of Homo sapiens with 8 samples.

Results

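The nucleoporins and karyopherins, the genes of the nuclear pore and of the receptors that carry cargo through it, were followed across 4 treatments of A2780, a human cell line established from an ovarian carcinoma. Members were the protein-coding genes whose GENCODE v29 symbol begins with NUP and a digit, KPNA, KPNB, IPO and a digit, or XPO and a digit or letter. Of 43 such genes, 42 were found among the 31721 genes of the deposited table, 22 nucleoporins and 20 karyopherins, and KPNA7 was not analysed here. The rule used names and no measured value. Cells had been kept for 24 hours with olaparib and palbociclib together (the combination), with palbociclib alone, with olaparib alone, or with DMSO, the solvent. Each of the 4 groups had 2 libraries of polyadenylated RNA. Palbociclib inhibits CDK4 and CDK6, the cyclin D kinases that drive cells out of G1, and olaparib blocks PARP1 and PARP2, the poly(ADP-ribose) polymerases that respond to single-strand breaks. The labels state no dose, and all 4 groups were the same line with no stated genetic change. Nothing in the labels says that the 2 libraries of a group came from separate cultures, so p-values cover only the spread between libraries and part of that may be technical.

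The nuclear pore complex is built from many copies of a set of nucleoporins arranged in rings: an outer ring on each face of the nuclear envelope, an inner ring that spans it, a membrane ring, a central channel filled with phenylalanine-glycine repeats, filaments on the cytoplasmic face and a basket on the nuclear side. Karyopherins are soluble receptors that bind a signal in their cargo and pass through the channel. Importins pick up cargo in the cytoplasm and exportins pick it up in the nucleus, and the small GTPase Ran sets the direction in both cases. In the classical import route an importin alpha adaptor reads the nuclear localisation signal and importin beta, encoded by KPNB1, carries the pair. New pores are assembled both after mitosis and during interphase, and proliferating cells are known for high levels of several of these genes, KPNA2 among them.

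The table held FPKM, read fragments scaled by gene length and library size, so levels can be set beside each other between genes, and the whole reads recovered from it gave 20566158 to 34057055 reads per library. The FPKM of a library summed to between 264453 (a combination library) and 295656 (a DMSO library), and all 6 treated libraries summed lower than the DMSO libraries. Replicate libraries were not copies of each other: the chi-square of their recovered reads, divided by its degrees of freedom, was 3.74 within the combination, 2.57 within palbociclib, 3.54 within olaparib and 2.24 within DMSO. The label calls the morphology epithelial, yet none of the 5 epithelial markers in the table (the highest, EPCAM, averaged 0.555 FPKM) and none of 3 ovarian markers had a mean of 1 FPKM, while 3 of 4 mesenchymal markers did. Immune, endothelial and erythroid markers were all below 1 FPKM. These are bulk samples, in which fewer cells of a type and less RNA per cell cannot be told apart.

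Of the 42 members, 39 had a mean of at least 1 FPKM and were tested. NUP62CL, NUP210L and IPO4 were below that level. NUP62CL, an X-linked relative of NUP62, was listed at 0 in 6 libraries and at no more than 0.02 FPKM in the others. NUP210L, a relative of NUP210, lay between 0.07 and 0.16 FPKM, and IPO4, an importin that brings histones into the nucleus, between 0.05 and 0.09 FPKM. In GENCODE v29 another gene on the same strand covers 69.3% of the exon bases of IPO4, and how shared bases were counted is not stated. Among tested members, NUP62 shares 21.1%, NUP88 18.7%, KPNA1 16.3% and IPO11 22.6% of exon bases with other genes on either strand, and no source used here says whether strand was considered. Several members also have pseudogene copies in the annotation, among them KPNA2 and NUP210 with 3 each, so the levels of these genes are less certain. The 39 tested genes ranged from KPNA5 (mean over 8 libraries 3.42 FPKM) to KPNA2 (158.6 FPKM).

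The promoters of 5 members are printed because these genes bound the range of responses: NUP155, KPNA2 and IPO5 had the lowest log2 fold changes with the combination, and NUP210 and IPO13 were the members that rose in 1 comparison. Each run is the 250 bases before the RefSeq start of the gene (build GRCh38.p14), written 5′ to 3′ on the strand of the gene. Capitals mark the matches to 2 short motifs: the CHR element (cell cycle genes homology region, TTTGAA, or TTCAAA on the other strand) and the CCAAT box (CCAAT, or ATTGG on the other strand), both known from promoters of genes expressed late in the cell cycle.
NUP155 promoter, chr5:37371107-37371356, minus strand: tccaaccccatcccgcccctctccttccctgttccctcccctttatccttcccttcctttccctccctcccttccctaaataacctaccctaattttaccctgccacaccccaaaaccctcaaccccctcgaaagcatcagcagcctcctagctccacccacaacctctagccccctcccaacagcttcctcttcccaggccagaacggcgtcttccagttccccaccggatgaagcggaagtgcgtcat
KPNA2 promoter, chr17:68035485-68035734, plus strand: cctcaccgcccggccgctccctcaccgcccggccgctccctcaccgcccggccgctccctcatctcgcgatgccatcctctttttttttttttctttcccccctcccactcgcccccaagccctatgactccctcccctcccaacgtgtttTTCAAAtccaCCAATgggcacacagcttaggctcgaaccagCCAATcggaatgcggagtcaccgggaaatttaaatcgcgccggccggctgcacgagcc
IPO5 promoter, chr13:97953425-97953674, plus strand: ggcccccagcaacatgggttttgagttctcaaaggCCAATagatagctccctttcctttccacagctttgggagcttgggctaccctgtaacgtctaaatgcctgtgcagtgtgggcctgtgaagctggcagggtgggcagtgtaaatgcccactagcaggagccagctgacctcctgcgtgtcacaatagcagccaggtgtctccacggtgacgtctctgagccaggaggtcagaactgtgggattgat
NUP210 promoter, chr3:13420323-13420572, minus strand: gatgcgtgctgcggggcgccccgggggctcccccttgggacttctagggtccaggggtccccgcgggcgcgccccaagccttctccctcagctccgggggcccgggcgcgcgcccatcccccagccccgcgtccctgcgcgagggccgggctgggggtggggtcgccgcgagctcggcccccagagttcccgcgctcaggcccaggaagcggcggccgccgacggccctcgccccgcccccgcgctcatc
IPO13 promoter, chr1:43946700-43946949, plus strand: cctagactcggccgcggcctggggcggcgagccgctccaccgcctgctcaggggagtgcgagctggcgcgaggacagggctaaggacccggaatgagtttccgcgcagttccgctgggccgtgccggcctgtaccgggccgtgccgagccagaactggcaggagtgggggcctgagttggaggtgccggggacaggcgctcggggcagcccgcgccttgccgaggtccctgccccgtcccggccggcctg

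The KPNA2 promoter held a CHR match at bases −99 to −94 and CCAAT boxes at bases −89 to −85 and −58 to −54, counted from the RefSeq start. GENCODE v29 starts KPNA2 at base 68035519, inside the printed window, so these matches lie within the v29 gene. The v29 starts of NUP155, IPO5 and IPO13 also lie inside their windows. IPO5 held a CCAAT box at bases −215 to −211, and the windows of NUP155, NUP210 and IPO13 held none of these letters. A promoter was found for 34 of the 39 tested members. Of these, 8 (23.5%) held the CHR letters against 13.3% of all 35116 promoters in the RefSeq table, and 15 (44.1%) held CCAAT against 32.0%. The E2F letters GGCGGGAA (TTCCCGCC) stood in 2 members, IPO11 and KPNA3 (5.88% against 2.72%), the E-box CACGTG in 4 (11.8% against 6.34%), the ETS letters CCGGAAGT (ACTTCCGG) in 4 (11.8% against 3.42%) and the NRF1 letters GCATGCGC (GCGCATGC) in 4 (11.8% against 2.63%). CACGTG reads the same on both strands, and none of the 6 motifs contains another. The 34 members had all passed the FPKM filter, while the 35116 promoters were not limited to tested genes, so the shares come from unlike sets. These are matches of letters in 1 window per member, given as a description.

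With the combination, 37 of the 39 tested members fell against DMSO, 1 rose and 1 did not pass, and with palbociclib alone 37 fell and 2 did not pass (limma, adjusted p under 0.05). All 20 tested nucleoporins fell with each of these treatments, and 17 of 19 karyopherins did. The median log2 fold change of the members was −0.45 with the combination and −0.34 with palbociclib, against −0.06 and −0.05 over all 12443 tested genes. Of all tested genes, 35.3% were called lower and 21.5% higher with the combination, and 31.4% lower and 18.7% higher with palbociclib. Both combination libraries lay below both DMSO libraries for 38 of the 39 members and above them for 1, against 46.9% and 32.5% of all tested genes. Both palbociclib libraries lay below both DMSO libraries for 38 and above them for 0, against 46.3% and 32.5%. The 3 comparisons with DMSO share the DMSO libraries. Under quantile normalisation 30 members were lower with the combination, with a median of −0.28, and 31 were lower with palbociclib, with a median of −0.24. In that setting 29% of all tested genes were called lower and 25.5% higher with the combination, with a median of −0.02. With palbociclib 25.2% of them were called lower and 21.9% higher, with a median of −0.02. Under TPM scaling 33 members were lower with the combination and 31 with palbociclib, against 24.2% and 21.6% of all tested genes. Of the members called with the combination, 6 lost the call and 1 changed sign under quantile normalisation, and 4 lost the call under TPM scaling. Of those called with palbociclib, 6 lost the call under each scaling. Not all of these members are named below.

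Proliferation markers moved with the same treatments. All 8 of them (MKI67, TOP2A, CCNA2, CCNB1, CDK1, PCNA, MCM2 and RRM2) were lower with the combination and with palbociclib. Their summed level was 388 and 389 FPKM in the combination libraries, 424 and 410.0 with palbociclib, 714 and 709 with olaparib, and 723 and 750.4 with DMSO. The summed level of the 42 members was 875 and 853 FPKM with the combination, 943 and 913 with palbociclib, 1126 and 1104 with olaparib, and 1253 and 1269.8 with DMSO.

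The libraries also differed in markers of cell identity. EPCAM, an epithelial adhesion gene below the filter, had 0.74 and 1.07 FPKM with the combination, 0.76 and 0.77 with palbociclib, 0.41 and 0.31 with olaparib and 0.16 and 0.23 with DMSO, and so passed 1 FPKM in 1 library. CDH1, which defines epithelial cells, was at or near 0 throughout, and the summed level of the 5 epithelial markers was 1.105 to 1.398 FPKM in the libraries with palbociclib, against 0.423 to 0.645 FPKM in those without it. VIM, the mesenchymal filament gene, had 339.7 and 339.2 FPKM with the combination, 349.7 and 326.01 with palbociclib, 243.4 and 236.7 with olaparib and 248.1 and 252.7 with DMSO. It rose with the combination (0.44 ± 0.04, limma adjusted p = 0.000159) and with palbociclib (0.43 ± 0.04, 0.000266), and the summed level of the 4 mesenchymal markers, most of it VIM, was 335 to 359 FPKM with palbociclib against 245 to 262 FPKM without it. Of the other mesenchymal markers, CDH2 rose with palbociclib alone (0.21 ± 0.07, limma adjusted p = 0.0311) and ZEB1 did not pass in any comparison with DMSO. ZEB1 had 5.84 and 5.70 FPKM with the combination, 6.40 and 5.83 with palbociclib and 6.21 and 5.74 with olaparib. All of these lay below its DMSO libraries (6.56 and 6.42 FPKM). FN1, below the filter, had 0.18 and 0.21, 0.29 and 0.21, and 0.22 and 0.19 FPKM in the same order, above 0.10 and 0.11 with DMSO. The part of the proliferation, epithelial and mesenchymal markers in the members' values was not tested.

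**Figure D1:**
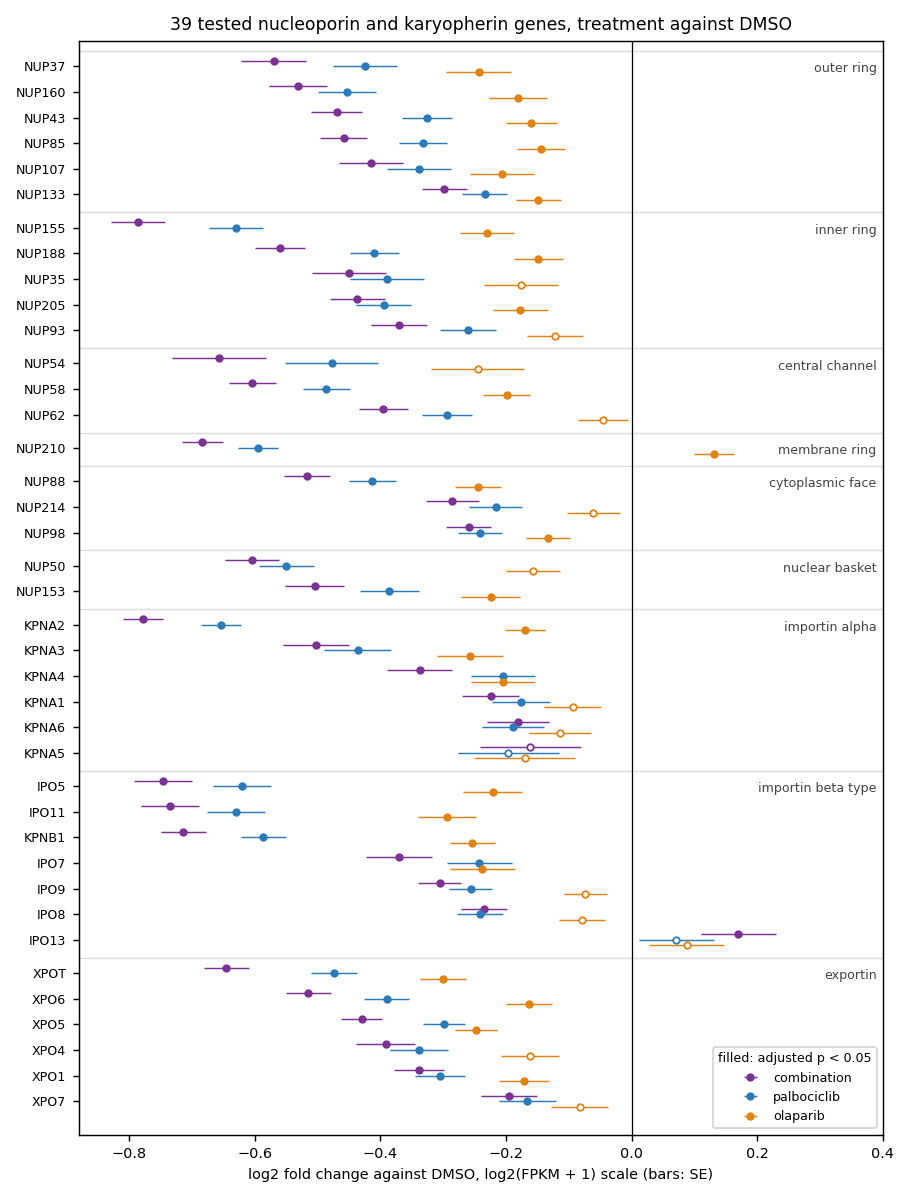
Log2 fold change against DMSO on the log2(FPKM + 1) scale (horizontal axis) for the 39 tested members (rows, grouped by role), for the combination (purple), palbociclib (blue) and olaparib (orange). Points are limma estimates from 2 libraries a group, bars are SE and filled points passed an adjusted p of 0.05; all but IPO13 lie left of 0 for the combination and for palbociclib.

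The outer ring, or Y complex, is the scaffold on which pores assemble and also docks on kinetochores in mitosis. All 6 members classed here with it alone (NUP37, NUP43, NUP85, NUP107, NUP133 and NUP160) were lower with the combination, with palbociclib and with olaparib. NUP37, a small propeller subunit, had the largest change of these 6, with 5.96 and 6.24 FPKM in the combination libraries, 7.12 and 6.6 with palbociclib, 8.14 and 7.68 with olaparib and 9.37 and 9.72 with DMSO. Its 4 groups did not overlap, and its log2 fold change with the combination was −0.57 ± 0.05 (± SE here and below; limma adjusted p = 0.000113). NUP133, which senses membrane curvature, had the smallest change of these 6. It stood at 23.7 and 23.1 FPKM with the combination, 24.8 and 24.2 with palbociclib, 26.5 and 25.7 with olaparib and 28.8 and 29.2 with DMSO, a log2 fold change of −0.30 ± 0.04 with the combination (limma adjusted p = 0.000406). Under quantile normalisation the NUP133 calls with the combination and with palbociclib were lost. The log2 fold changes of the others of these 6 with the combination ran from −0.53 (NUP160) to −0.42 (NUP107).

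The inner ring joins the membrane to the central channel. Its 5 tested members, NUP35, NUP93, NUP155, NUP188 and NUP205, all fell with the combination and with palbociclib, and NUP155, NUP188 and NUP205 fell with olaparib. NUP155, which contacts the membrane, had the lowest fold change of all 39 members with the combination: 14.1 and 13.8 FPKM in the combination libraries, 15.6 and 15.7 with palbociclib, 21.6 and 20.4 with olaparib and 24.1 and 25.4 with DMSO. Each group was separate from the next in that order, and the log2 fold change was −0.79 ± 0.04 with the combination (limma adjusted p = 2.1e-05), −0.63 ± 0.04 with palbociclib (7.56e-05) and −0.23 ± 0.04 with olaparib (0.0208). NUP93, which links the ring to the channel, changed least in this class. It had 8.56 and 8.99 FPKM with the combination, 9.76 and 9.35 with palbociclib, 10.4 and 10.8 with olaparib and 11.4 and 11.9 with DMSO, with a log2 fold change of −0.37 ± 0.04 with the combination (limma adjusted p = 0.000405) and −0.12 ± 0.04 with olaparib, which did not pass (0.109). NUP188 (−0.56 ± 0.04), NUP35 (−0.45 ± 0.06) and NUP205 (−0.44 ± 0.04) lay between them with the combination.

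The central channel is lined by NUP54, NUP58 and NUP62, whose repeats form the permeability barrier. All of these fell with the combination and with palbociclib, and NUP58 alone of them passed with olaparib (−0.20 ± 0.04, limma adjusted p = 0.0207). NUP54 had 12.9 and 11.8 FPKM with the combination, 15.3 and 13.01 with palbociclib, 16.9 and 16.6 with olaparib and 19.8 and 20.3 with DMSO. The combination libraries were below the palbociclib libraries only narrowly, the log2 fold change with the combination was −0.66 ± 0.07 (limma adjusted p = 0.000305), and the standard error was the largest of the nucleoporins. NUP62 had 19.5 and 19.8 FPKM with the combination, 21 and 21.3 with palbociclib, 24.7 and 25.9 with olaparib and 25.6 and 26.6 with DMSO. The olaparib and DMSO libraries of NUP62 overlapped (−0.05 ± 0.04, limma adjusted p = 0.470), whereas both palbociclib-containing groups lay below them.

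NUP210, a glycoprotein of the membrane ring, was the member with opposite calls for the single drugs. It stood at 25.6 and 26 FPKM with the combination, 27.3 and 27.7 with palbociclib, 45.7 and 46.6 with olaparib and 42.3 and 41.8 with DMSO. Both olaparib libraries lay above both DMSO libraries, and all palbociclib and combination libraries lay far below. It fell with the combination (−0.68 ± 0.03, limma adjusted p = 1.57e-05) and with palbociclib (−0.59 ± 0.03, 4.16e-05), and rose with olaparib (0.13 ± 0.03, 0.0400). It was the only member called higher with olaparib, where 4.13% of all tested genes were. That call was lost when either DMSO, either olaparib or either palbociclib library was left out, with log2 fold changes of 0.12 to 0.15, and without the filter on low values.

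On the cytoplasmic face NUP214 and NUP88 hold the export filaments, and NUP98, present on both faces, binds RNA export factors. All 3 fell with the combination and with palbociclib, and NUP88 and NUP98 fell with olaparib. NUP88 had 16.03 and 16.1 FPKM with the combination, 17.2 and 17.5 with palbociclib, 19.5 and 19.8 with olaparib and 22.8 and 24.03 with DMSO. Its 4 groups were separate, with a log2 fold change of −0.52 ± 0.04 with the combination (limma adjusted p = 4.59e-05) and −0.24 ± 0.04 with olaparib (0.0137). NUP98 had the smallest change of any nucleoporin with the combination (−0.26 ± 0.04, limma adjusted p = 0.000738). Its levels were 21.5 and 21.4 FPKM with the combination, 22.3 and 21.3 with palbociclib, 23.5 and 23.5 with olaparib and 25.7 and 26.1 with DMSO, so the combination and palbociclib groups overlapped. The NUP98 calls with the combination and with palbociclib were lost under quantile normalisation.

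The nuclear basket members NUP50 and NUP153, which take part in the release of imported cargo, fell with the combination and with palbociclib. NUP50, a cofactor of importin alpha, had 16.2 and 15.2 FPKM with the combination, 16.2 and 16.4 with palbociclib, 22.3 and 21.1 with olaparib and 24.2 and 24.5 with DMSO. The olaparib libraries stood nearer to DMSO than to the other treatments, and the log2 fold change was −0.60 ± 0.04 with the combination (limma adjusted p = 4.59e-05) against −0.16 ± 0.04 with olaparib, which did not pass (0.0545). NUP153 had 22.7 and 20.99 FPKM with the combination, 24.3 and 23.3 with palbociclib, 27.2 and 26.3 with olaparib and 31.7 and 31.1 with DMSO. It fell in all 3 treatments, with log2 fold changes of −0.50 ± 0.05 with the combination and −0.22 ± 0.05 with olaparib (limma adjusted p = 0.000130 and 0.0274).

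The importin alpha adaptors were dominated by KPNA2, and KPNA2 changed most. It had 119.7 and 117.9 FPKM with the combination, 130.8 and 128.3 with palbociclib, 182.2 and 180.96 with olaparib and 202.9 and 205.9 with DMSO. The groups were separate, the palbociclib-containing ones standing well below olaparib and DMSO, with log2 fold changes of −0.78 ± 0.03 with the combination (limma adjusted p = 1.4e-05), −0.65 ± 0.03 with palbociclib (3.59e-05) and −0.17 ± 0.03 with olaparib (0.0207). KPNA2 made up 69.2% and 70.0% of the summed FPKM of the 6 adaptors with the combination, 70.1% and 71.2% with palbociclib, 75.7% and 76.2% with olaparib and 75.5% and 75.8% with DMSO. Its share was thus lower in all 4 libraries with palbociclib than in the 4 without it, a range of 69.2% to 71.2% against 75.5% to 76.2%.

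The other adaptors moved less. KPNA5 was the member that did not pass with the combination: it had 3.601 and 3.07 FPKM with the combination, 3.403 and 3.05 with palbociclib, 3.49 and 3.11 with olaparib and 3.81 and 3.86 with DMSO. Every treated library of KPNA5 was below both DMSO libraries, but the 3 treated groups overlapped and its log2 fold changes of −0.16 ± 0.08, −0.20 ± 0.08 and −0.17 ± 0.08 (combination, palbociclib, olaparib) had limma adjusted p = 0.129, 0.0815 and 0.195. KPNA3 had 15.6 and 14.7 FPKM with the combination, 16.6 and 15.2 with palbociclib, 18.1 and 18.1 with olaparib and 21.3 and 22.4 with DMSO, and it fell in all 3 treatments (−0.50 ± 0.05 with the combination, limma adjusted p = 0.000218). KPNA4 also fell in all 3 (−0.34, −0.20 and −0.20 with the combination, palbociclib and olaparib). KPNA1 and KPNA6 fell slightly with the combination (−0.22 and −0.18) and with palbociclib (−0.18 and −0.19). The KPNA6 calls of both treatments were lost under quantile normalisation, under TPM scaling, and without DMSO replicate 1 or 2 or replicate 2 of the treatment. With palbociclib the calls of KPNA1 and KPNA4 were lost without DMSO replicate 1 or palbociclib replicate 2.

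**Figure D2:**
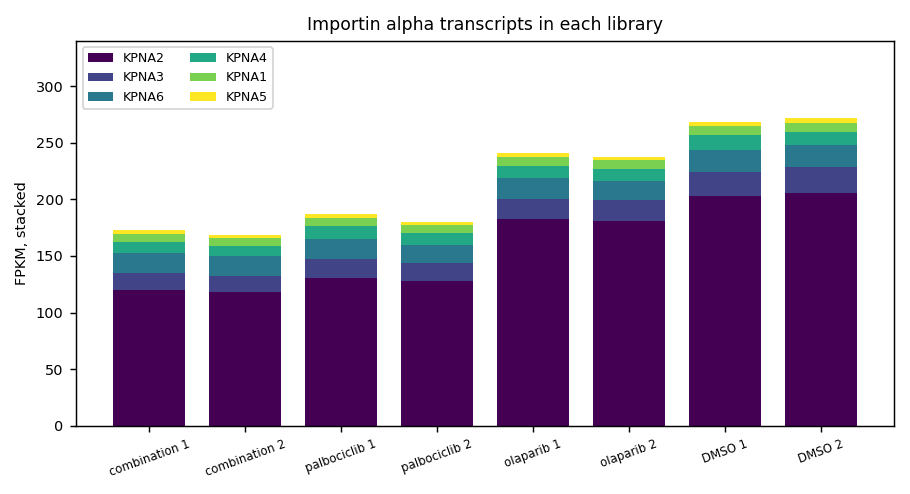
Stacked FPKM (vertical axis) of the 6 importin alpha genes in each of the 8 libraries, from the combination on the left to DMSO on the right. The KPNA2 segment is the largest in every bar, at 119.7 and 117.9 FPKM with the combination against 202.9 and 205.9 FPKM with DMSO, and the other segments differ less.

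Among the importins of the beta type, which bind the pore directly, 6 of 7 fell and IPO13 rose with the combination. KPNB1, the carrier of classical import, had 67.2 and 66.04 FPKM with the combination, 74.7 and 71.1 with palbociclib, 92.6 and 91.5 with olaparib and 109.3 and 110.5 with DMSO. Its groups were separate, and the log2 fold change was −0.71 ± 0.04 with the combination (limma adjusted p = 1.67e-05; −0.41 under quantile normalisation), −0.59 ± 0.04 with palbociclib (5.53e-05) and −0.25 ± 0.04 with olaparib (0.0127). IPO5, an importer of histones and ribosomal proteins, had 38.3 and 36.7 FPKM with the combination, 41.7 and 40.3 with palbociclib, 56.3 and 52.5 with olaparib and 62.4 and 64.8 with DMSO. It had the largest change of the class (−0.75 ± 0.05 with the combination, limma adjusted p = 2.77e-05).

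IPO11, which imports ubiquitin-conjugating enzymes, was expressed at a lower level and changed nearly as much. It had 6.28 and 6.18 FPKM with the combination, 6.98 and 6.56 with palbociclib, 8.97 and 8.65 with olaparib and 10.8 and 11.3 with DMSO, with log2 fold changes of −0.73 ± 0.05, −0.63 ± 0.05 and −0.29 ± 0.05 (combination, palbociclib, olaparib; limma adjusted p = 2.78e-05, 8.73e-05 and 0.0145). IPO7, which like IPO5 carries ribosomal proteins, stood at 63.8 ± 3.15 FPKM with the combination and 82.8 ± 0.0990 FPKM with DMSO (SD, n = 2 each). It fell in all 3 treatments (−0.37 with the combination), and with palbociclib its call was lost without palbociclib replicate 2. IPO8 (−0.23) and IPO9 (−0.31), an importer of actin and histones, fell with the combination and with palbociclib, and not past the threshold with olaparib (0.189 and 0.189).

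IPO13, a receptor that works in both import and export, was the 1 member higher with the combination. Its levels were 8.95 and 9.198 FPKM with the combination, 8.9 and 7.94 with palbociclib, 8.26 and 8.79 with olaparib and 7.75 and 8.16 with DMSO. Both combination libraries lay above every other library, while the palbociclib and DMSO libraries overlapped. The log2 fold change was 0.17 ± 0.06 with the combination (limma adjusted p = 0.0445), and 0.07 ± 0.06 with palbociclib and 0.09 ± 0.06 with olaparib, which did not pass (0.358 and 0.357). With 1 library left out, the call held only where that was a palbociclib library. It was also lost without the filter on low values and with the replicate block (adjusted p = 0.058).

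All 6 tested exportins fell with the combination and with palbociclib. XPOT, the tRNA exportin, had 27.8 and 27.8 FPKM with the combination, 32.1 and 30.7 with palbociclib, 36.1 and 35.03 with olaparib and 43.9 and 44.1 with DMSO. Its groups were separate, with log2 fold changes of −0.64 ± 0.04 with the combination, −0.47 ± 0.04 with palbociclib and −0.30 ± 0.04 with olaparib (limma adjusted p = 2.24e-05, 0.000101 and 0.0112). XPO5, which exports precursor microRNAs, had 18.5 and 18.2 FPKM with the combination, 19.98 and 20.4 with palbociclib, 21.1 and 20.8 with olaparib and 25.3 and 24.8 with DMSO. In XPO5 the single drugs gave nearly the same levels (−0.30 ± 0.03 with palbociclib, −0.25 ± 0.03 with olaparib). XPO1, also called CRM1, the main protein exportin, and XPO6, the exportin of actin, were the most abundant of the class. XPO1 fell to 35.4 ± 0.590 FPKM with the combination, against 45.1 ± 0.488 FPKM with DMSO (SD, n = 2 each; log2 −0.34 ± 0.04). XPO6 fell to 32.8 ± 0.164 FPKM with the combination, against 47.3 ± 0.382 FPKM with DMSO (log2 −0.51 ± 0.04).

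XPO7 changed least among the exportins. It had 22.1 and 21.3 FPKM with the combination, 22.5 and 21.8 with palbociclib, 24.2 and 22.9 with olaparib and 24.4 and 25.6 with DMSO, and the first 2 of these groups overlapped. Its log2 fold change with the combination was −0.20 ± 0.05 (limma adjusted p = 0.00851), which turned to 0.02 under quantile normalisation, and it lost its call under TPM scaling and without DMSO replicate 2. With palbociclib (−0.17 ± 0.05) the call was lost under both scalings and without DMSO replicate 2 or palbociclib replicate 2. XPO4 fell with the combination (−0.39) and with palbociclib (−0.34) and did not pass with olaparib (−0.16 ± 0.05, limma adjusted p = 0.0608).

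**Figure D3:**
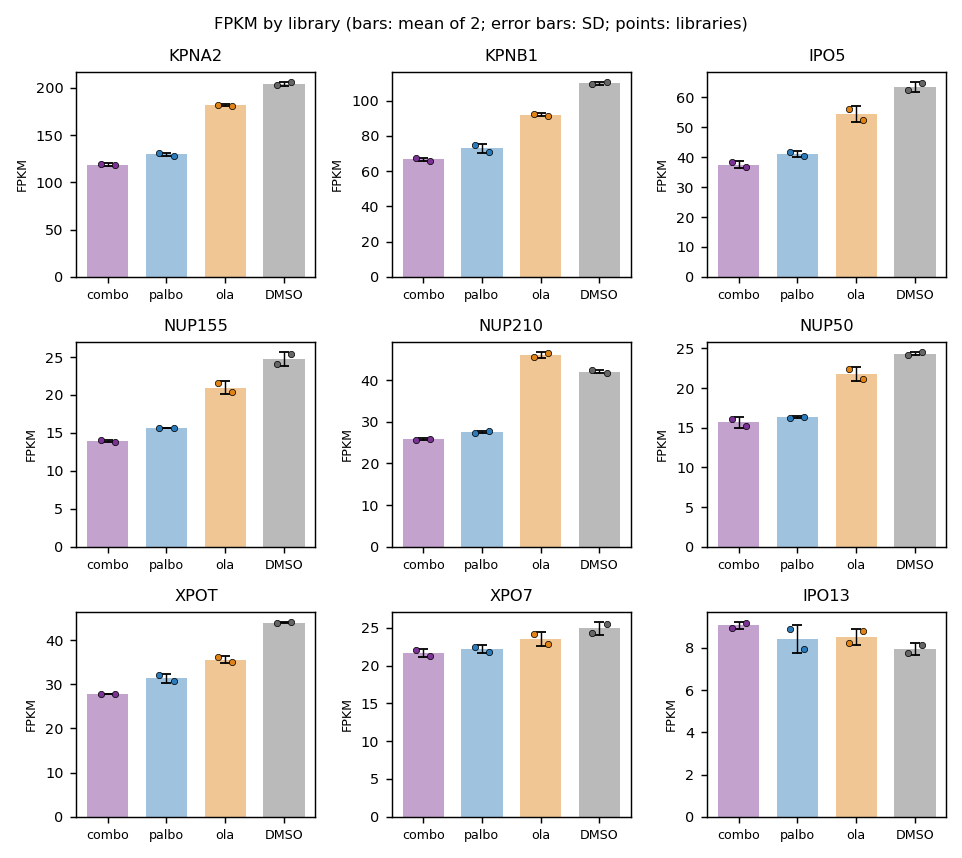
FPKM (vertical axes, starting at 0) of 9 members in the combination, palbociclib, olaparib and DMSO groups. Bars are means of 2 libraries, error bars SD and points the libraries; KPNA2, KPNB1, IPO5, NUP155, NUP50 and XPOT stand lowest with the combination, NUP210 is highest with olaparib, XPO7 differs little and IPO13 is highest with the combination.

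Set against DMSO, olaparib alone was called lower for 24 of the 39 members and higher for NUP210, and 14 did not pass, with a median log2 fold change of −0.17 against −0.03 over all tested genes. Of all tested genes 10.5% were called lower. Nucleoporins gave 13 lower of 20 and karyopherins 11 lower of 19. Among the members that passed, the largest falls were those of XPOT (−0.30 ± 0.04), IPO11 (−0.29 ± 0.05), KPNA3 (−0.26 ± 0.05, limma adjusted p = 0.0258), KPNB1 (−0.25 ± 0.04), XPO5 (−0.25 ± 0.03, 0.0117) and NUP88 (−0.24 ± 0.04). Next came NUP37 (−0.24), IPO7 (−0.24), NUP155 (−0.23), NUP153 (−0.22), IPO5 (−0.22), NUP107 (−0.21) and KPNA4 (−0.20). NUP54 had a fall of similar size (−0.24 ± 0.07) and did not pass (limma adjusted p = 0.0684). Both olaparib libraries lay below both DMSO libraries for 36 members and above them for 2, against 38.6% and 23.3% of all tested genes. Of the proliferation markers, 2 of 8 (CCNA2 and RRM2) were lower with olaparib and 0 were called higher, and 6 of 8 lay below 0. PCNA lay above DMSO, at 215.03 and 214.8 FPKM with olaparib against 196.8 and 202.4 FPKM with DMSO.

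The number of members called lower with olaparib rested on single libraries and on the scaling. It was 0 when either DMSO library or olaparib replicate 2 was left out, 2 without olaparib replicate 1 (XPO5 and XPOT), 14 without either palbociclib library and 23 without either combination library. In the fits without a DMSO or an olaparib library, 0% to 1.09% of all tested genes were called lower, and the members' median log2 fold change was −0.21 to −0.16. Under quantile normalisation 4 members were lower (NUP88, XPO5, XPOT and IPO11) against 3.2% of all tested genes, with a members' median of −0.10. Under TPM scaling the same 4 and KPNB1 were lower against 3.8%, with a members' median of −0.11.

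**Figure D4:**
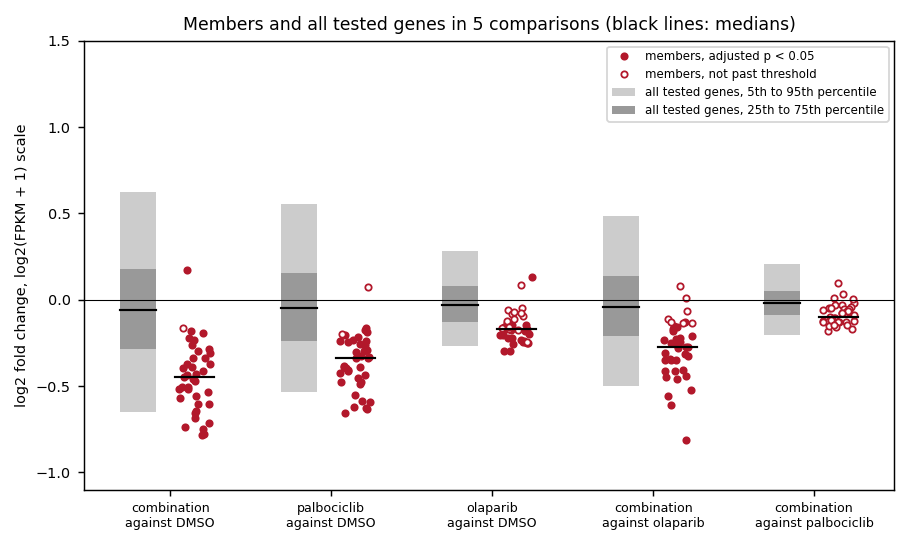
Log2 fold change on the log2(FPKM + 1) scale (vertical axis) in 5 comparisons. Red points are the 39 members, filled where the adjusted p was under 0.05; grey bars span the 5th to 95th and the 25th to 75th percentile of all 12443 tested genes, and black lines are medians. The members' median lies below that of all genes in each comparison, at −0.45, −0.34, −0.17, −0.27 and −0.10 from left to right.

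Nucleoporins of every class were lower with the combination than with olaparib alone, and not all karyopherins passed the threshold. In this comparison 32 of the 39 were called lower and 7 were not called, with a median of −0.27 against −0.04 over all tested genes, of which 27.4% were called lower and 17% higher. All 20 nucleoporins and 12 of 19 karyopherins were lower. Of the karyopherins 0 were called higher and 17 lay below 0, as did 7011 of the 12443 tested genes. NUP210 fell most (−0.81 ± 0.03, limma adjusted p = 3e-05), followed by KPNA2 (−0.61 ± 0.03), NUP155 (−0.56 ± 0.04), IPO5 (−0.53 ± 0.05), KPNB1 (−0.46 ± 0.04) and NUP50 (−0.45 ± 0.04). Further falls were those of IPO11 (−0.44), NUP54 (−0.41), NUP188 (−0.41), NUP58 (−0.40), XPOT (−0.35), XPO6 (−0.35), NUP160 (−0.35) and NUP62 (−0.35). Those that did not pass were KPNA1, KPNA4, KPNA5, KPNA6, IPO7, IPO13 and XPO7. Both combination libraries lay below both olaparib libraries for 37 members and above them for 1, against 41.9% and 30.1% of all tested genes. Under quantile normalisation 21 members were lower against 22.2% of all tested genes, the members' median was −0.17, and NUP98 (−0.13) turned to 0.02. The NUP98 call was also lost without any 1 of the DMSO, olaparib or combination libraries, and those of IPO8, NUP107, NUP133 and XPO1 without olaparib replicate 1 or combination replicate 2.

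Between the combination and palbociclib alone most members had slightly lower values with the combination, and none passed the test. Limma called 0 members in either direction, where 0.0161% of all tested genes were called lower and 0.00804% higher. At an unadjusted p under 0.05, 20 members were lower and 0 higher, against 11.8% and 4.85% of all tested genes. Voom on the recovered reads called 1 member lower, XPOT, against 1.58% of all tested genes lower and 0.739% higher. The members' median was −0.10, with 35 of 39 below 0, against −0.02 over all 12443 tested genes, with 7219 below 0. Both combination libraries lay below both palbociclib libraries for 27 members and above them for 1, IPO13, and 11 overlapped, against 29.1% below and 18.1% above over all tested genes. The lowest values were those of NUP54 (−0.18 ± 0.07, limma adjusted p = 0.292), XPOT (−0.17 ± 0.04, 0.136) and NUP155 (−0.16 ± 0.04, 0.176). The 95% interval of XPOT ran from −0.26 to −0.08 and that of KPNA5 (0.03) from −0.16 to 0.23, so a missed threshold does not show equal levels.

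The departure from additivity is the olaparib effect with palbociclib (combination against palbociclib) minus the olaparib effect without it (olaparib against DMSO). No member passed it in limma (0 called, as against 0.00804% of all tested genes). Voom called 0 members, as against 0.402% of all tested genes. At an unadjusted p under 0.05 limma gave 7 members above 0 and 1 below, against 5.77% and 4.80% of all tested genes. The 7 above 0 were IPO11 (0.19 ± 0.06), KPNA3 (0.19 ± 0.07), NUP88 (0.14 ± 0.05), XPO1 (0.14 ± 0.06), XPOT (0.13 ± 0.05), KPNB1 (0.13 ± 0.05) and XPO5 (0.12 ± 0.05), and the 1 below was NUP210 (−0.22 ± 0.05, limma adjusted p = 0.350). The members' median was 0.10, against 0.02 over all tested genes. Of the members 35 of 39 lay above 0, while 5646 of the 12443 tested genes lay below 0. For most members the log2 change that went with olaparib was thus numerically closer to 0 in the presence of palbociclib, and for no single member was this difference past the threshold.

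**Figure D5:**
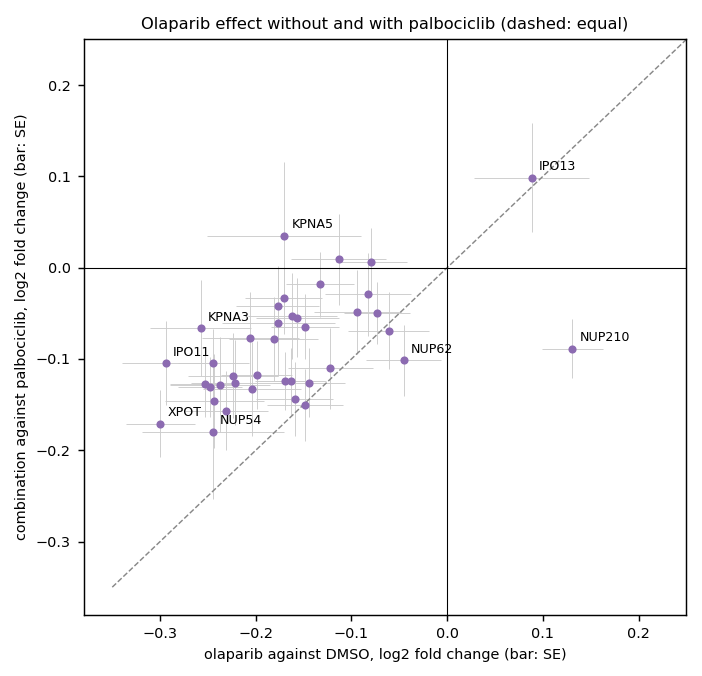
Olaparib effect with palbociclib (vertical axis, combination against palbociclib) against olaparib effect without it (horizontal axis, olaparib against DMSO) for the 39 tested members, both as log2 fold changes with SE bars from 2 libraries a group. The dashed line marks equal effects; 35 points lie above it, and NUP210 lies lower right, at 0.13 on the horizontal and −0.09 on the vertical axis.

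Across the 39 members the log2 change and the level in DMSO went together weakly, with a Spearman rho of −0.42 for the combination, −0.39 for palbociclib and −0.16 for olaparib. The points share the same DMSO libraries, so these values are a description.

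The rest of the transport machinery was read from a list of 41 tested genes: nucleoporins without a NUP name, other receptors, the Ran cycle and messenger RNA export. With the combination 31 of them fell and 1 rose, with a median of −0.31, and with palbociclib 30 fell and 1 rose. The shares of all tested genes were 35.3% lower and 21.5% higher with the combination, and 31.4% and 18.7% with palbociclib. With olaparib 13 fell and none rose, against 10.5% lower and 4.13% higher of all tested genes, and 0 or 1 were called without any 1 of the DMSO or olaparib libraries. In the combination against olaparib 26 were lower and 2 (DDX39B and THOC5) higher, against 27.4% and 17% of all tested genes. All 5 Ran cycle genes (RAN, RCC1, RANGAP1, RANBP1 and RANBP3) fell with the combination and with palbociclib. RANBP1, a cofactor of Ran GTP hydrolysis, changed most, to 38.97 and 42.1 FPKM with the combination, 45.5 and 45.8 with palbociclib and 69.2 and 71.03 with olaparib, against 80.97 and 83.7 with DMSO (−1.01 ± 0.04 with the combination, limma adjusted p = 1.45e-05). RCC1, the exchange factor that loads Ran with GTP (−0.86 ± 0.04), and RANGAP1, which triggers its hydrolysis (−0.72 ± 0.05), also fell with the combination.

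In messenger RNA export, the helicase gene DDX39A (−0.97 ± 0.05) and the adaptor gene ALYREF (−0.93 ± 0.04) fell with the combination. CSE1L, the exportin that returns importin alpha to the cytoplasm, fell to 74.6 ± 2.91 FPKM with the combination, against 124.7 ± 4.68 FPKM with DMSO (SD, n = 2 each; log2 −0.73 ± 0.05). The outer ring subunit gene SEH1L (−0.78 ± 0.04) and the membrane ring gene NDC1 (−0.64 ± 0.05) fell as well. DDX39B, a close relative of DDX39A that may share reads with it, was the gene that rose (0.37 ± 0.05, limma adjusted p = 0.00113). It had 20.5 and 20.7 FPKM with the combination, 18.6 and 18.2 with palbociclib, 16.2 and 14.9 with olaparib and 16.4 and 15.1 with DMSO. In the combination against palbociclib, limma called 0 of the 41. At an unadjusted p under 0.05 12 were lower and 1 higher, against 11.8% and 4.85% of all tested genes. Voom called 5 (ALYREF, NDC1, RAE1, RCC1 and SEH1L), where it called 1.58% of all tested genes lower and 0.739% higher.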

How the data were processed

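RNA abundance was measured by sequencing of polyadenylated RNA in 8 libraries of A2780 cells (4 groups of 2), made with TRIzol extraction and a NEBNext Ultra kit, per the labels' protocols. Per the submitters' processing notes the tools were CASAVA 1.8, STAR 2.5.1b and HTSeq 0.6.0, with no role or order, and the build GRCh38 (hg38); the annotation release and use of strand are not given in the sources used here. The authors deposited FPKM values, 1 column per library, for 31721 Ensembl genes. Of these identifiers 30945 (97.6%) matched GENCODE v29, which gave symbols, positions and exon lengths. With these lengths 28632 genes (90.3%) gave whole reads in every library within 0.01 reads. For 3086 further genes a length that gave whole reads was searched for, so their fit is no independent check. Recovered depths were 20566158 to 34057055 reads, and for a single gene their number limits the precision: KPNB1 had 11298 to 27273 reads.

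Values were tested as log2(FPKM + 1) with limma 3.58.1 in R 4.3.3: 1 mean per group, all 8 libraries in a single fit, empirical Bayes moderation with an expression trend, 4 residual and 3.01 prior degrees of freedom. The test covered the 12443 genes that averaged 1 FPKM or more; 19278 did not. The log2(FPKM + 1) scale understates changes of low genes. Adjusted p is Benjamini-Hochberg over all genes tested within a comparison, threshold 0.05, two-sided. In all 6 comparisons were made: 3 against DMSO, the combination against olaparib and against palbociclib, and the departure from additivity. A permutation test of 2 against 2 libraries cannot go below 0.333, so none was used. The procedure was also run on simulated data with a small set of genes changed in the palbociclib group. Far more genes were called in the real comparisons with palbociclib, so that run does not bear on a broad shift or on the scaling.

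The members, role classes and lists were chosen with earlier results of these data known. In each role class the members with the largest and the smallest absolute log2 fold change with the combination are given in all libraries, with up to 6 members past the threshold for olaparib, between treatments and for the departure; others are named by size of change, up to 20 a comparison, and 8 other transport genes. DDX39B and THOC5 were named after their values were seen. SARNP and RANGRF of the other transport genes were below the filter. Promoter sequences came from RefSeq (GRCh38.p14), with 37 of 42 members matched by symbol. Alternatives were a pseudocount of 0.1, no filter, quantile normalisation, scaling to TPM (values divided by each library's FPKM total), voom on the recovered reads, a replicate block and leaving out each library.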

Additional observations from a re-analysis of the deposited data

Results flagged for a closer look

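NUP210, the membrane ring glycoprotein, stood apart in how olaparib moved it with and without palbociclib. Both combination libraries (25.6 and 26.0 FPKM) lay below both palbociclib libraries (27.3 and 27.7 FPKM), a log2 difference of −0.09 ± 0.03 (SE; limma adjusted p = 0.246). Both olaparib libraries (45.7 and 46.6 FPKM) lay above both DMSO libraries (42.3 and 41.8 FPKM), a log2 difference of 0.13 ± 0.03. The first effect minus the second was −0.22 ± 0.05, with an unadjusted limma p of 0.0019 and an adjusted p of 0.350 over the 12443 tested genes, so the difference failed the correction. No other member had all libraries moving in opposite directions in this way.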

How the results depend on the processing

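The falls with the combination and with palbociclib depended least on the processing. Members lower with the combination (37) numbered 30 to 38 over all alternatives and those lower with palbociclib (37) numbered 31 to 38. The olaparib count moved most. Of 24 members lower with olaparib, 6 were called without the filter on low values, 4 under quantile normalisation, 5 under TPM scaling, and 0 to 23 with 1 library left out, against 1.37%, 3.2%, 3.8% and 0% to 10.9% of all tested genes. The members' median with olaparib was −0.21 to −0.16 with 1 library left out. The member higher with olaparib was lost without the filter (0) and ranged from 0 to 1 with 1 library left out. Of the other transport genes, 13 were called with olaparib, 4 without the filter, 2 under quantile normalisation, 6 under TPM scaling, 20 by voom, and 0 to 15 with 1 library left out. The shares of all tested genes called higher with olaparib were 0.52% without the filter, 4.84% under quantile normalisation and 7.55% under TPM scaling. Voom called 16.9% of them lower and 8.69% higher with olaparib. With palbociclib 1 member was higher under TPM scaling, against 27.6% of all tested genes. The member higher with the combination was lost (0) without the filter and ranged from 0 to 1 with 1 library left out. In the combination against olaparib 21 members were lower under quantile normalisation and 27 to 32 with 1 library left out. In the combination against palbociclib voom called 1 member and 5 other transport genes, where limma called 0. Of all tested genes voom called 1.58% lower and 0.739% higher there. XPO7 and NUP98 changed sign under quantile normalisation, in the results XPO7, combination against DMSO (0.0186) and NUP98, combination against olaparib (0.0202). The cause was not tested for any of these.

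Scaling to TPM moved the median log2 fold change of all genes with the combination by 0.12, to 0.06. Relative to that median the members' median was −0.39 with FPKM and with TPM. Dividing a library by its total shifts all genes nearly alike, so this value could hardly differ between them. Under quantile normalisation it was −0.26. The share of calls that were higher was 28.2% with olaparib (60.2% under quantile normalisation, 66.5% under TPM scaling). With the combination it was 37.8% (46.9%, 57.4%), with palbociclib 37.3% (46.5%, 56.1%) and in the combination against olaparib 38.2% (48.1%, 53.9%). Replicate numbers showed no sign of pairing in the values: deviations of same-numbered libraries correlated at −0.05 to 0.03. Such correlations cannot show whether those libraries were handled together. With the replicate block 22 members were lower and 1 higher with olaparib, against 11.7% and 5.31% of all tested genes. In that fit 38 were lower with palbociclib, against 32.3% of all tested genes, and 35 in the combination against olaparib, against 28.6%. With the combination 0 were higher, against 21.7% of all tested genes. With 2 libraries a group, a small change within the spread between libraries was not detectable.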
